A study of Mus musculus with 9 samples.

Results

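Most genes that bacterial lipopolysaccharide (LPS) switched up in RAW264.7 macrophages lay lower again when sodium butyrate (NaBu) was also given. The 75 genes described here lay higher still. They were chosen by their measured values: in group means of normalised counts, each plus 1, LPS over Control was at least 2, LPS+NaBu over LPS was at least 1.5, and the LPS mean plus 1 was at least 50. These 75 are drawn from 43629 listed genes, of which 11316 had an LPS mean plus 1 of at least 50 and 938 of those (8.29%) also had LPS over Control of at least 2. Because the same values selected the genes, their differences between groups are given as a description and nothing is tested on them.

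RAW264.7 is a macrophage-like mouse line transformed by Abelson leukaemia virus, and all 9 libraries came from it. The 3 groups of 3 libraries were LPS+NaBu (cells given NaBu before LPS), LPS (cells given LPS) and Control (cells given neither agent). LPS is the endotoxin of Gram-negative bacteria, and NaBu is the salt of a short-chain fatty acid that inhibits histone deacetylases. The design text calls the replicates biological without naming separate cultures, so the spread between libraries can be technical in part. Cells that received NaBu alone were not analysed here, so a change that NaBu makes with LPS and one that it makes without LPS cannot be told apart.

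LPS is sensed by Toll-like receptor 4, which activates NF-κB, MAP kinases and, through interferon-β, STAT proteins, and these drive cytokine, chemokine and antiviral genes. The same signals also induce their own brakes, among them the dual-specificity phosphatases that switch off MAP kinases and the IκB proteins that hold NF-κB in the cytoplasm. Inhibitors of histone deacetylases raise histone acetylation and are known both to lower many inflammatory transcripts in macrophages and to raise others.

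Recovered reads, in units of 1e6, ranged from 39.4 to 64.4 in LPS+NaBu libraries, from 37.6 to 52.3 in LPS libraries and from 44.9 to 57.2 in Control libraries. Of 10 macrophage markers 9 were matched by symbol, and their summed level was 199896 to 218066 normalised counts in LPS+NaBu, 552938 to 598169 in LPS and 437696 to 455912 in Control. With LPS+NaBu against LPS, 8 of these 9 were called lower and 1, Mertk, higher. The marker not matched, Adgre1 (F4/80), is listed under its older symbol Emr1 and is not in these sums. Its log2 ratio was 1.09 for LPS over Control and -0.43 for LPS+NaBu over LPS. Markers of fibroblasts summed to 272 to 296 in LPS+NaBu, 13.0 to 18.8 in LPS and 6.36 to 12.1 in Control, and the 4 of 7 with enough counts to be tested were all called higher with LPS+NaBu. Neuron markers summed to 250 to 302 in LPS+NaBu, 6.02 to 9.39 in LPS and 6.36 to 14.1 in Control, nearly all of it Tubb3, while Snap25 and Syt1 were at 0 in every library. Dendritic cell markers summed to 4326 to 5046 in LPS+NaBu, 10726 to 11381 in LPS and 8451 to 9216 in Control. Most of this was Itgax, which averaged 4193 in LPS+NaBu, 11019 in LPS and 8879 in Control. Within the list Zbtb46 averaged 498 in LPS+NaBu, 53.3 in LPS and 79.7 in Control. Ccr7 averaged 42.5 in LPS+NaBu, 0 in LPS and 0.671 in Control. Osteoclast markers summed to 35407 to 36947 in LPS+NaBu, 88517 to 94367 in LPS and 89870 to 95766 in Control. Ctsk, the largest of them, averaged 17722 in LPS+NaBu, 78755 in LPS and 82296 in Control. Ocstamp was at 448 in LPS+NaBu, 29.5 in LPS and 38.0 in Control. The lists of both cell types thus held genes that were higher with LPS+NaBu while their sums were lower. B cell markers summed to 46.3 to 56.4 in LPS+NaBu, 74.9 to 104 in LPS and 5.57 to 20 in Control. Most of the LPS sum was Pax5, which averaged 5.92 in LPS+NaBu, 86.3 in LPS and 0 in Control. Cd79a (21.0 in LPS+NaBu, 4.68 in LPS, 5.47 in Control) and Cd79b (21.9, 1.45 and 5.73) went the other way. Ms4a1 was at 0 throughout. Neutrophil and T cell markers also had lower sums in LPS+NaBu than in LPS, endothelial markers (mostly Vwf) a higher one, and epithelial markers were at 0 in LPS and Control and at 4.46 to 13.1 in LPS+NaBu. In bulk RNA, fewer cells of a type and less RNA per cell cannot be told apart, and the part of these marker changes in the results was not tested.

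Of the 938 LPS-induced genes, 75 (8.0%) had LPS+NaBu over LPS of at least 1.5, 196 (20.9%) lay between the 1.5-fold limits and 667 (71.1%) were at least 1.5-fold lower with LPS+NaBu. Among all 11316 genes with an LPS mean plus 1 of at least 50, 23.5% had LPS+NaBu over LPS of at least 1.5 and 30.1% were at least 1.5-fold lower. The median LPS+NaBu over LPS was 0.393 over the LPS-induced genes and 0.923 over the 11316. Raised genes were thus a smaller share of the LPS-induced genes than of the genes at this level in general. Both ratios use the same LPS libraries, so a high LPS value raises one and lowers the other.

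**Figure D1:**
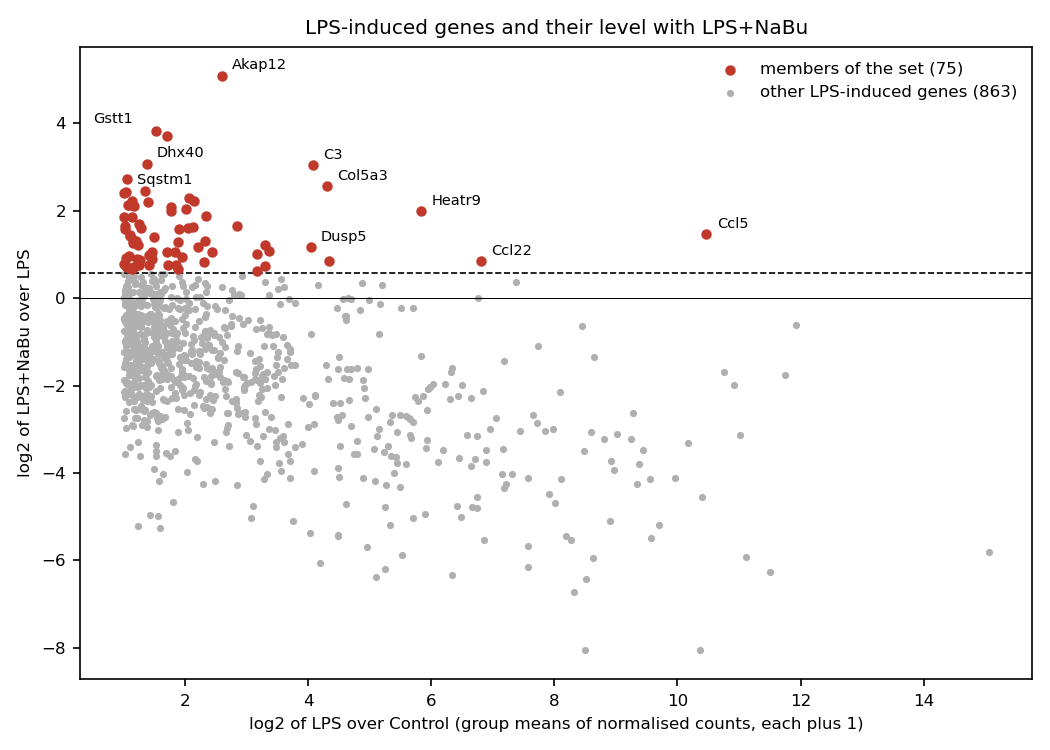
Each point is 1 of the 938 LPS-induced genes, placed by the log2 of LPS over Control (horizontal) and the log2 of LPS+NaBu over LPS (vertical), with the 75 genes of the set in red and the limit of 1.5 as a dashed line. Most points lie below 0 on the vertical axis, and Akap12 (LPS+NaBu over LPS of 34.1) and Ccl5 (LPS over Control of 1415) mark the ends of the set.

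Within the 75, LPS+NaBu over LPS ranged from 1.53 to 34.1 with a median of 2.48, and LPS over Control ranged from 2.01 to 1415 with a median of 2.74. LPS+NaBu over LPS was at least 2 in 51 genes, at least 5 in 10 and at least 10 in 3, whereas LPS over Control was at least 5 in 17 and at least 10 in 8. For 30 of the 75 the step between LPS+NaBu and LPS was the larger of the pair. The median gene had a mean of 1543 normalised counts in LPS+NaBu, 619 in LPS and 130 in Control. Together the 75 genes held 1.91 to 1.99% of all normalised counts in LPS+NaBu libraries, 0.537 to 0.574% in LPS and 0.20 to 0.203% in Control, and Sqstm1, Ccl5 and Prdx1 made up 57.1 to 59.0% of their counts in LPS+NaBu, 56.3 to 59.0% in LPS and 51.6 to 53.2% in Control. The median coefficient of variation among the 3 libraries of a group was 5.48% in LPS+NaBu, 7.93% in LPS and 9.50% in Control.

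In all 75 genes every LPS+NaBu library lay above every LPS library, as in 40.8% of the 14808 genes tested, and every LPS library lay above every Control library, as in 27.4%. A moderated test across all genes (limma) called 74 of the 75 higher with LPS+NaBu than with LPS (40.2% of all genes tested) and 75 higher with LPS than in Control (25.2%). The exception was Gm22748. The rule used both contrasts, so nothing is read from these counts.

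**Figure D2:**
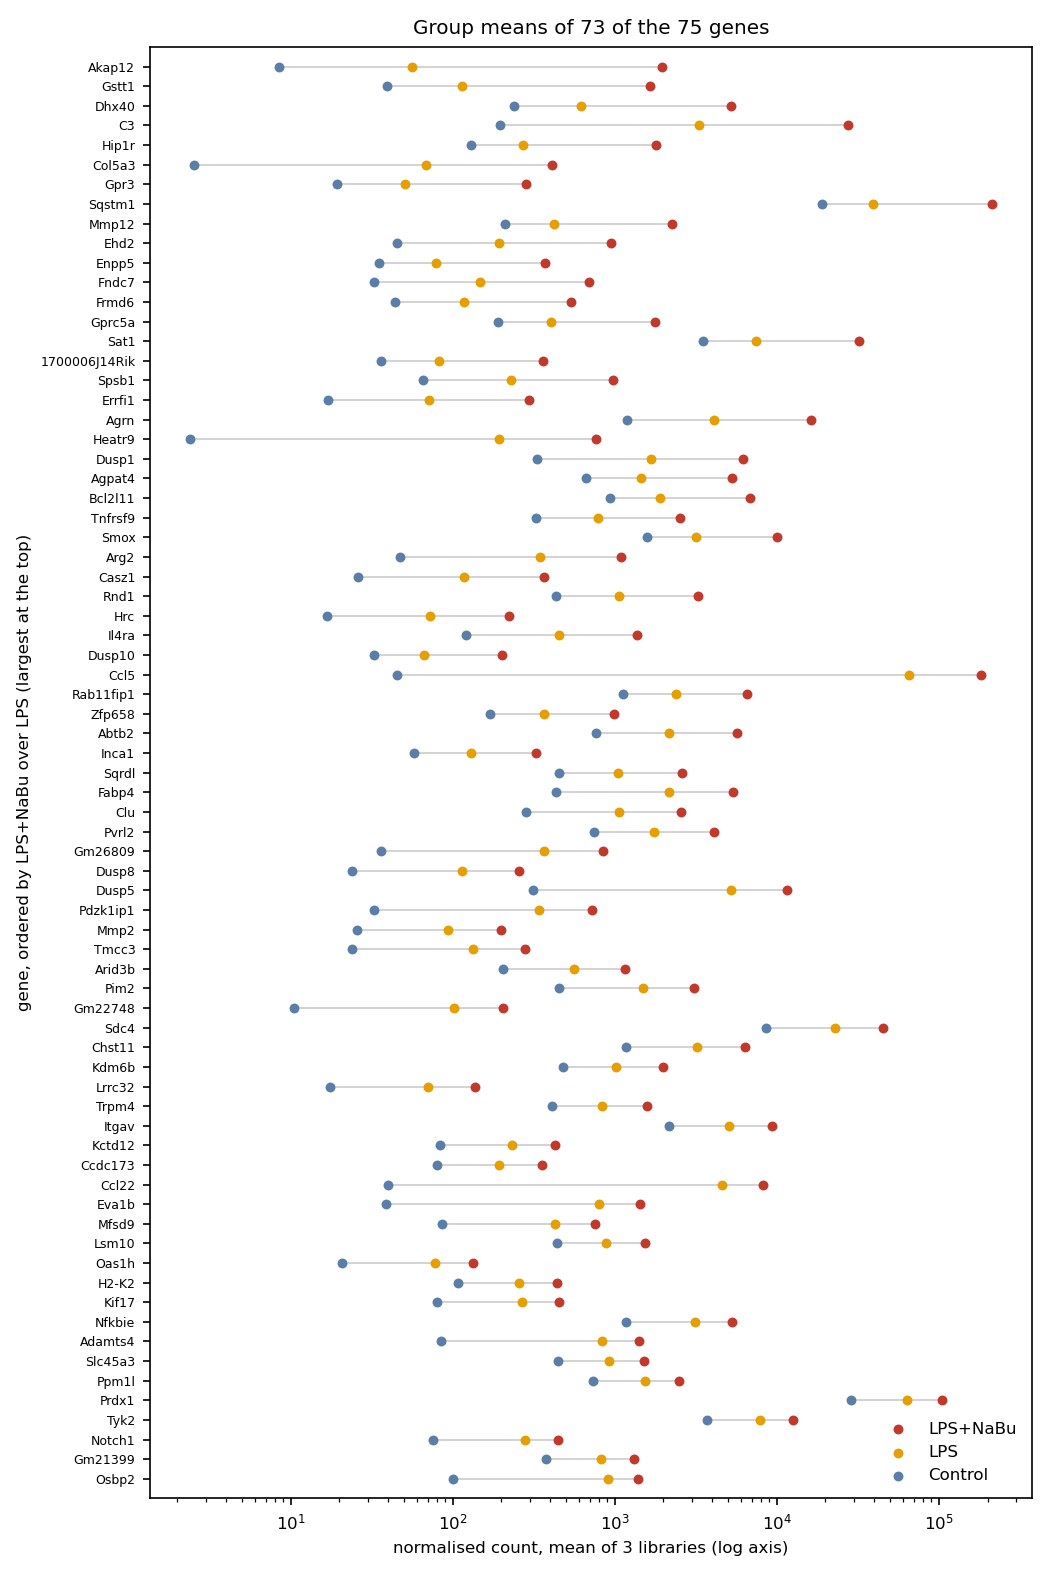
The horizontal axis gives the mean normalised count of 3 libraries in LPS+NaBu (red), LPS (orange) and Control (blue) on a log scale for 73 of the 75 genes, ordered from the largest to the smallest LPS+NaBu over LPS. Levels span from 2.40 (Heatr9 in Control) to 212930 (Sqstm1 in LPS+NaBu), and counts are not divided by gene length, so points are to be read along a line and not between genes.

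The limits cut through a continuum. Just inside the limit of 1.5 for LPS+NaBu over LPS were Osbp2 (1.53), Gm21399 (1.59) and Notch1 (1.59), and just outside it Jdp2 (1.48), Uaca (1.47) and Oas1c (1.46). For LPS over Control, Lsm10 (2.01), Bcl2l11 (2.02) and Mmp12 (2.02) were just inside the limit of 2, and Insl6 (1.98), Tmsb10 (1.98) and Thra (1.95) just outside it. For the LPS mean plus 1, Gpr3 (51.5), Akap12 (57.3) and Dusp10 (67.9) were the lowest inside the limit of 50, and 1700020L24Rik (47.7), Rgs20 (46.7) and Itga6 (46.7) the highest outside it.

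The sequence around the start sites of these genes, which the rule selected for moving in the same direction, was searched for short motifs. Windows reaching from 250 bases before to 50 bases after the start of the canonical transcript (GENCODE M39, GRCm39) were available for 74 of the 75 genes and for 14580 of all tested genes, on both strands. The cyclic AMP response element TGACGTCA was in 8 windows of the set (10.8%) against 2.86% of all windows. The AP-1 motif TGANTCA was in 10 (13.5%) against 5.85%, and the antioxidant response element core TGACNNNGC was in 20 (27.0%) against 13.6%. These 3 motifs can overlap (TGACTCAGC holds an AP-1 motif and an antioxidant element), and 30 windows (40.5%) held at least 1 of them, against 20.8% of all. The κB motif, the binding site of NF-κB, was in 9 windows (12.2%) against 9.66%. The interferon-stimulated response element (ISRE) was in 1 (1.35%) against 3.70%, and the STAT motif TTCNNNGAA was in 3 (4.05%) against 7.41%. The windows of the set had a median GC content of 60.2%, against 56.7% for all. The remaining motifs were the C/EBP motif TTNCNNAA (35.1% against 36.5%), the PU.1 motif GAGGAA (21.6% against 27.6%), the E-box CACGTG (13.5% against 9.33%), the GC box GGGCGG (64.9% against 51.9%) and the TATA box TATAAA (13.5% against 9.48%). A match describes the letters of the reference genome and not a bound site. The comparison is with all tested genes and not with other LPS-induced genes, so it cannot show that a share is particular to this set.

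**Figure D3:**
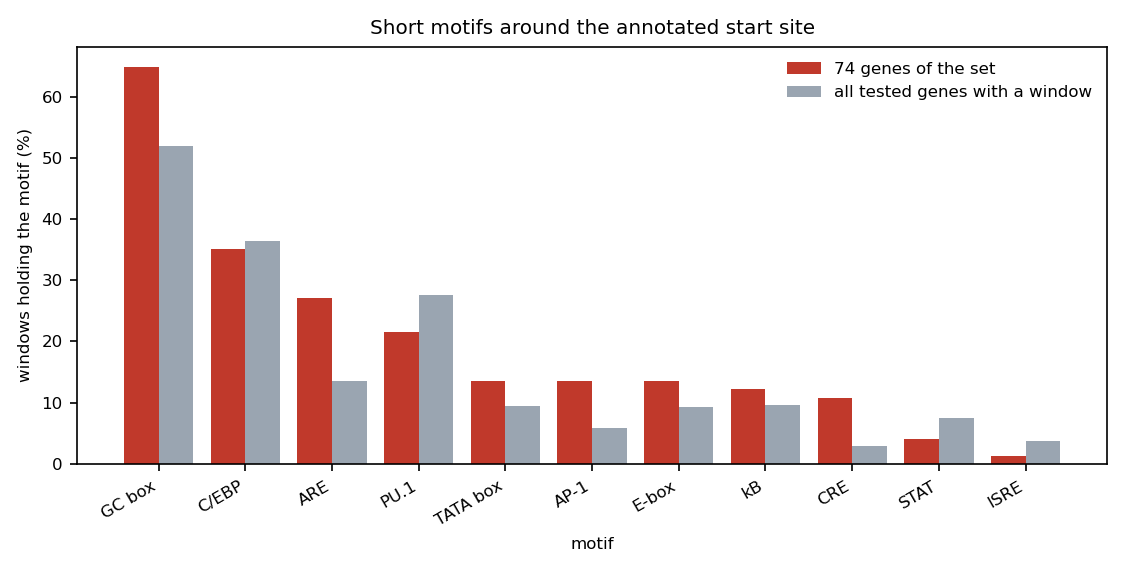
Bars give the percentage of 300-base windows around the annotated start site that hold each motif on either strand, for 74 genes of the set (red) and for all 14580 tested genes with a window (grey). The set stands above all genes for the CRE (10.8 against 2.86%), AP-1 (13.5 against 5.85%) and ARE (27.0 against 13.6%) motifs, and below for the ISRE (1.35 against 3.70%).

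Matches before the start sites of genes described below are printed here so that the letters behind these counts can be compared. Each is 30 bases of the mouse reference (GRCm39) in the direction of the gene, with the motif in capitals. The cyclic AMP response element is shown for Dusp1 (chr17:26727571-26727600, minus strand) and for both copies of Dusp8 (chr7:141649110-141649139 and chr7:141649066-141649095, minus strand). The antioxidant element is shown for Sqstm1 (chr11:50102991-50103020, minus strand), Prdx1 (chr4:116542653-116542682, plus strand) and Heatr9 (chr11:83413054-83413083, minus strand), and the AP-1 motif for Mmp12 (chr9:7347319-7347348, plus strand). The κB motif is shown for Ccl5 (chr11:83421415-83421444, minus strand), Tnfrsf9 (chr4:151012404-151012433, plus strand) and Nfkbie (chr17:45866510-45866539, plus strand).
Dusp1 CRE: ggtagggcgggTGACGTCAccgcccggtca
Dusp8 CRE, farther copy: gcccgctccgcTGACGTCAcctgcccccga
Dusp8 CRE, nearer copy: ttggctgcaggTGACGTCAggggctttttc
Sqstm1 ARE: gaattcctctTGACTCAGCttcccaagggc
Prdx1 ARE: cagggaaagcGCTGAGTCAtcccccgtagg
Heatr9 ARE: tcagtgagcaGCTGAGTCAggaggccaaca
Mmp12 AP-1: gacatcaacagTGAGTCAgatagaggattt
Ccl5 kB: tgtcttttgtGGAAACTCCCcaagtcctgg
Tnfrsf9 kB: agagcagctgGGGATTTCCCaggaggccct
Nfkbie kB: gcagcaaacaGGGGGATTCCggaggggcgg
The Sqstm1 and Prdx1 matches are the same 9 letters read from opposite strands, as are those of Sqstm1 and Heatr9. The motif began 96 bases before the start in Dusp1, 76 and 32 bases before it in Dusp8, 125 bases before it in Sqstm1 and 89 bases before it in Ccl5. These starts are of the canonical transcript only. Of the 140 bases before them, 137 in Dusp1, 85 in Dusp8, 81 in Tnfrsf9 and 140 in Prdx1 lie in annotated exons. In Sqstm1 and Dusp1 the annotated gene begins farther upstream than the start used, and other starts were not searched.

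Akap12 and Gstt1 were among the genes with the largest LPS+NaBu over LPS. Akap12, on chromosome 10, encodes a scaffold that gathers protein kinases A and C at the cell cortex. It had 1936, 1911 and 2014 normalised counts in LPS+NaBu libraries, against 60.2, 49.3 and 59.3 in LPS and 6.36, 8.0 and 11.1 in Control. Its LPS+NaBu over LPS was 34.1 and its LPS over Control 6.04, and the groups did not overlap. Gstt1, a theta-class glutathione transferase, had 1691, 1694 and 1545 in LPS+NaBu, against 80.2, 141 and 122.9 in LPS and 47.7, 30 and 40.2 in Control, with a ratio of 14.2 between LPS+NaBu and LPS. Its LPS libraries were the most scattered of the 3 groups relative to their mean, and none reached the LPS+NaBu values.

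Dhx40, a DEAH-box RNA helicase gene, averaged 5249 ± 319 in LPS+NaBu, 619 ± 47.3 in LPS and 238 ± 11.1 in Control (SD, n = 3 each). Its LPS+NaBu over LPS was 8.47. Further genes with a large LPS+NaBu over LPS included Hip1r (6.60), an endocytic linker between clathrin and actin, Ehd2 (4.91), a membrane-bending ATPase found at caveolae, and Enpp5 (4.68), of the ectonucleotide pyrophosphatase family. Ehd1 (0.555) and Ehd4 (0.695), relatives of Ehd2 looked up after the values were known, had LPS+NaBu over LPS under 1.

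Genes of complement and of the matrix are described next. C3, the central complement protein, which macrophages as well as liver cells secrete, had 28931, 27599 and 25861 normalised counts in LPS+NaBu, against 3310, 3689 and 3008 in LPS and 201.2, 199 and 190 in Control. It stood high on both steps, with LPS+NaBu over LPS of 8.23 and LPS over Control of 16.9. Clu, which encodes the chaperone clusterin, averaged 2582 ± 211 in LPS+NaBu, 1059 ± 79.3 in LPS and 285 ± 43.4 in Control. C3 and Clu were the only members among the complement genes examined, and the others given here were looked up after the values were known. With LPS+NaBu over LPS, Cfb (0.037), C3ar1 (0.151), C5ar1 (0.251), Cfp (0.332), C4b (0.365), C1ra (0.740) and C2 (0.859) lay under 1, and Cd59a (3.07) and C1s1 (36.4, with an LPS mean of 4.16) above it. Col5a3, a chain of type V collagen, had 394, 406 and 435 in LPS+NaBu, against 87.2, 73.9 and 45.2 in LPS and 1.59, 4.0 and 2.01 in Control. Its LPS+NaBu over LPS was 5.92. Fibroblast markers were also higher with LPS+NaBu (272 to 296, against 13.0 to 18.8 in LPS, summed over the list), and their part in the Col5a3 values was not tested.

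Mmp12, macrophage elastase, had 2175, 2182 and 2444 in LPS+NaBu, against 462, 467 and 343 in LPS and 226, 211 and 192 in Control. Agrn, the proteoglycan agrin, averaged 16248 ± 301 in LPS+NaBu, 4076 ± 197 in LPS and 1193 ± 75 in Control. Sdc4, the surface proteoglycan syndecan 4, averaged 44986 ± 2230 in LPS+NaBu, 22763 ± 1617 in LPS and 8569 ± 473 in Control. Of its relatives, looked up after the values were known, Sdc1 had LPS+NaBu over LPS of 1.64 and Sdc3 of 0.620. Further genes of this kind were the gelatinase Mmp2 (LPS+NaBu over LPS 2.10), the aggrecanase Adamts4 (1.67), the chondroitin sulphotransferase Chst11 (1.97) and the αv integrin chain Itgav (1.86). In a list of matrix proteins, proteases and their inhibitors, 56 of 111 tested genes (50.5%, against 40.2% of all genes tested) were called higher with LPS+NaBu against LPS. In the same list 34 (30.6%, against 37.8%) were called lower, and the median log2 change was 0.37, against 0.02 over all genes tested. The set held 5 of these 111, against 75 of the 14808 genes tested and 75 of the 938 LPS-induced genes (8.0%). Membership required induction by LPS, so nothing is read from this count.

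Among chemokines, which call in other leukocytes, only Ccl5 and Ccl22 met the rule. Of 22 tested chemokine genes 19 (86.4%, against 25.2% of all genes tested) were called higher and 1 (4.55%, against 30.8%) lower with LPS than in Control. With LPS+NaBu against LPS, 6 (27.3%, against 40.2%) were called higher and 14 (63.6%, against 37.8%) lower. The median log2 change of the list with LPS+NaBu against LPS was -1.30. Ccl5 (RANTES), which attracts T cells and monocytes, had 186034, 189952 and 168595 normalised counts in LPS+NaBu, against 60119, 72527 and 64725 in LPS and 34.2, 58.0 and 44.3 in Control. Its LPS+NaBu over LPS was 2.76 and its LPS over Control 1415, the largest LPS response of the set. Per kilobase of exonic sequence it had the highest LPS+NaBu level of the 74 annotated genes, at 176755 normalised counts per kilobase.

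Ccl22, a ligand of CCR4, had 8134, 8674 and 7940 in LPS+NaBu, against 4390, 4999 and 4326 in LPS and 41.3, 44.0 and 34.2 in Control. Its step between LPS+NaBu and LPS, 1.80, was smaller than that of Ccl5, and its LPS over Control was 112. Heatr9, a gene of little-known function, lies beside Ccl5 on chromosome 11 with a gap of 3.60 kb between the annotated genes. It had 803, 780 and 712 in LPS+NaBu, against 226, 202 and 148 in LPS and 3.18, 2.0 and 2.01 in Control, with LPS+NaBu over LPS of 3.97. Both neighbours lie on the minus strand, with Heatr9 after Ccl5 in the direction of transcription. The rule selected both for rising over the 3 groups, so nothing is read from that shared order. Whether reads of Heatr9 stem from transcripts of Ccl5 was not tested.

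**Figure D4:**
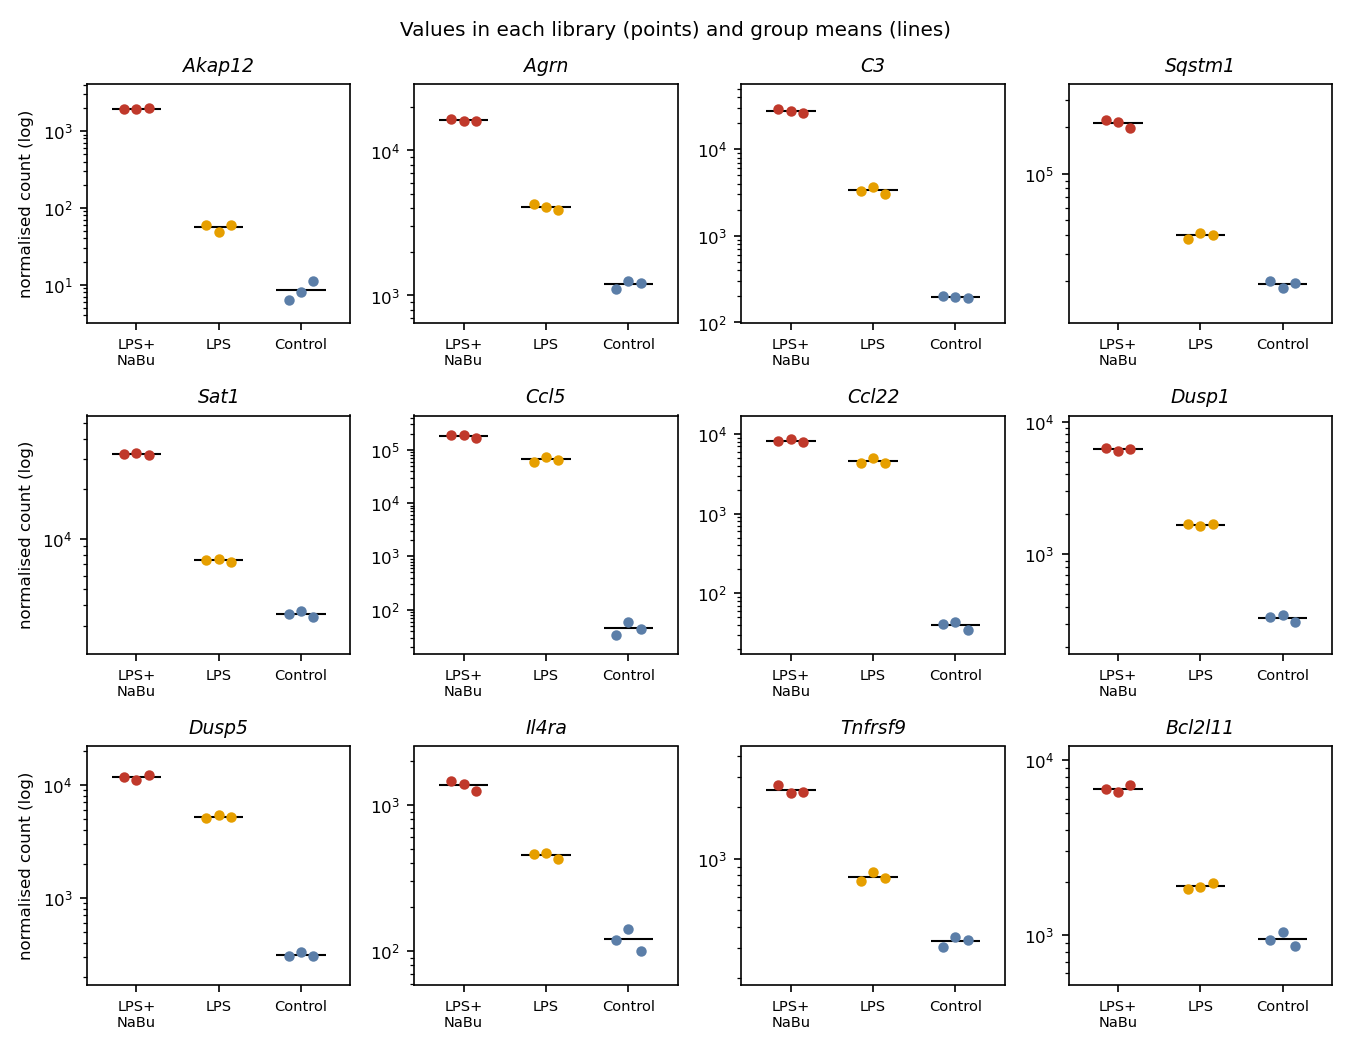
Each panel gives the normalised count of 1 gene in each library (points, log axis) and the group mean (line) for LPS+NaBu, LPS and Control. In each of the 12 genes the 3 LPS+NaBu points lie above the 3 LPS points, and these above the 3 Control points, with the widest step between LPS+NaBu and LPS in Akap12 (34.1) and the narrowest in Ccl22 (1.80).

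Brakes on signalling were also in the set. In a list of 53 tested genes that restrain NF-κB or Toll-like receptor signalling, 47 (88.7%, against 25.2% of all genes tested) were called higher and 2 (3.77%, against 30.8%) lower with LPS than in Control. With LPS+NaBu against LPS, 15 (28.3%, against 40.2%) were called higher and 32 (60.4%, against 37.8%) lower, with a median log2 change of -0.49. The 5 of these 53 that belonged to the set were Dusp1, Dusp5, Dusp8, Dusp10 and Nfkbie. Over all genes tested 75 of 14808 belonged, and among the LPS-induced genes 75 of 938 (8.0%). Membership required induction by LPS, which most of this list showed, so nothing is read from this count. Dusp1, a nuclear phosphatase that inactivates p38 and JNK, had 6365, 6041 and 6244 normalised counts in LPS+NaBu, against 1697, 1640 and 1693 in LPS and 336, 348 and 311 in Control, with LPS+NaBu over LPS of 3.71.

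Dusp5, a nuclear phosphatase of ERK, had 11795, 11005 and 12051 in LPS+NaBu, against 5067, 5370 and 5138 in LPS and 308, 331 and 307 in Control. Dusp10, which acts on p38 and JNK, had 175, 211 and 220 in LPS+NaBu, against 54.1, 70.4 and 76.3 in LPS and 26.2, 37 and 34.2 in Control. Dusp8, also a phosphatase of p38 and JNK, had 264, 245 and 261 in LPS+NaBu, against 114, 115 and 113 in LPS and 12.7, 18 and 41.2 in Control. The Control values of Dusp8 were scattered, but none reached the LPS values.

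The other MAP kinase phosphatases were examined after their values had been seen and are given as values. Dusp9 averaged 484 ± 43.4 in LPS+NaBu, 84.9 ± 12.5 in LPS and 230 ± 4.85 in Control, so that it was lower with LPS than in Control. Dusp2 averaged 771 ± 100 in LPS+NaBu, 798 ± 29.3 in LPS and 210 ± 20 in Control, and its LPS+NaBu and LPS libraries overlapped. Dusp6, Dusp16, Dusp4 and Dusp7 had LPS+NaBu over LPS of 0.474, 0.287, 0.714 and 0.604, all under 1. Within this family, then, Dusp1, Dusp5, Dusp8 and Dusp10 met the rule, whereas Dusp4, Dusp6, Dusp7 and Dusp16 lay lower with LPS+NaBu than with LPS. Dusp10 did not meet the rule with equal library totals, with quantile normalization or in every run that left out 1 library.

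**Figure D5:**
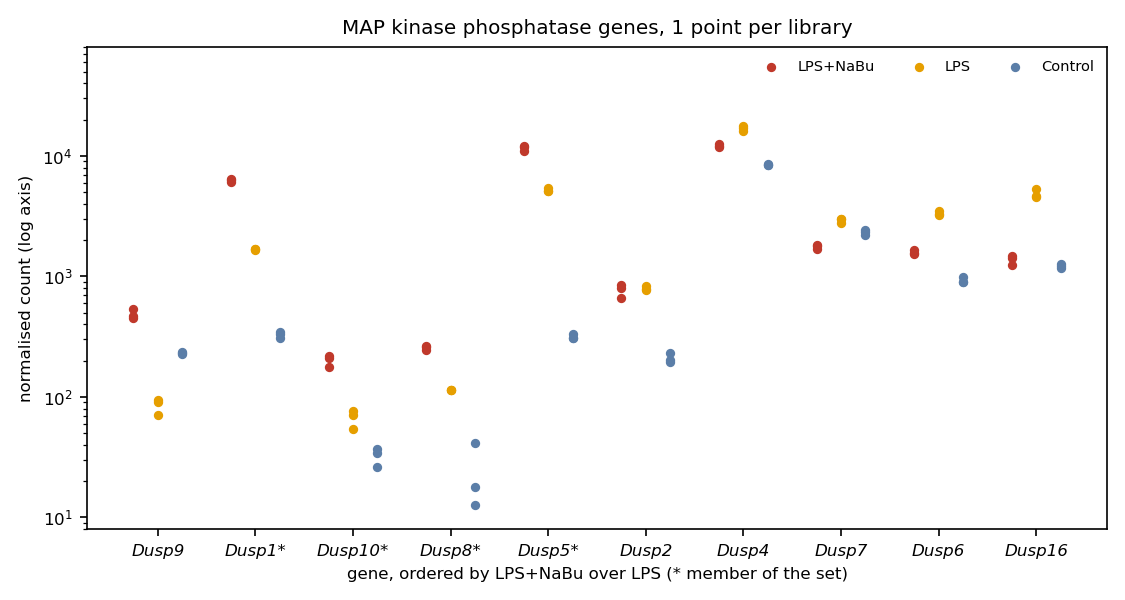
Normalised counts (log axis) of 10 MAP kinase phosphatase genes in the 3 libraries of LPS+NaBu, LPS and Control, 1 point per library, ordered by LPS+NaBu over LPS, with genes of the set starred. Dusp1, Dusp10, Dusp8 and Dusp5 step upwards over both comparisons, whereas Dusp4, Dusp7, Dusp6 and Dusp16 lie higher in LPS than in LPS+NaBu.

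Nfkbie, which encodes the NF-κB inhibitor IκBε, had 5448, 5544 and 4964 normalised counts in LPS+NaBu, against 2939, 3420 and 3066 in LPS and 1195, 1138 and 1189 in Control, with LPS+NaBu over LPS of 1.69. Its relatives, looked up after the values were known, had lower ratios: Nfkbid 0.120, Bcl3 0.282, Nfkbib 0.851, Nfkbia 0.921 and Nfkbiz 1.01. Among brakes outside the list of NF-κB and Toll-like receptor restraints, Errfi1, an inhibitor of the EGF receptor, had LPS+NaBu over LPS of 4.10. Spsb1, a SOCS-box adaptor of a ubiquitin ligase, had 4.26. Bcl2l11, the gene of the pro-apoptotic protein BIM, had 6845, 6593 and 7182 in LPS+NaBu, against 1835, 1884 and 1976 in LPS and 927, 1035 and 858 in Control. Kdm6b, a histone H3 lysine demethylase induced by LPS in macrophages, averaged 1983 ± 103 in LPS+NaBu, 1023 ± 68.4 in LPS and 483 ± 59.9 in Control. Its relative Kdm6a, looked up after the values were known, had LPS+NaBu over LPS of 0.530.

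Receptors and kinases of cytokine signalling stood beside them. Il4ra, the chain shared by the IL-4 and IL-13 receptors, had 1468, 1395 and 1249 normalised counts in LPS+NaBu, against 465, 467 and 429 in LPS and 120, 141 and 101 in Control. Tnfrsf9, the costimulatory receptor 4-1BB, had 2717, 2431 and 2471 in LPS+NaBu, against 740, 837 and 774 in LPS and 305, 348 and 334 in Control. The ratio of LPS+NaBu to LPS was 3.02 for Il4ra and 3.24 for Tnfrsf9. Tyk2, a JAK kinase of the interferon and IL-12 receptors, averaged 12619 ± 648 in LPS+NaBu, 7863 ± 500 in LPS and 3694 ± 347 in Control. Its relatives, looked up after the values were known, had LPS+NaBu over LPS of 1.45 (Jak1), 0.530 (Jak2) and 0.560 (Jak3). In the list of 70 tested cytokine receptor genes 26 (37.1%, against 40.2% of all genes tested) were called higher and 33 (47.1%, against 37.8%) lower with LPS+NaBu against LPS, with a median log2 change of -0.23, and Il4ra and Tnfrsf9 were its only genes in the set.

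Pim2, a survival kinase, averaged 3092 ± 115 in LPS+NaBu, 1494 ± 67.2 in LPS and 456 ± 22.9 in Control. Its relatives Pim1 and Pim3, looked up after the values were known, had LPS+NaBu over LPS of 0.448 and 0.591. Notch1, a receptor cut to release a transcription activator, had a ratio of 1.59, and Lrrc32, which displays latent TGF-β on the cell surface, 1.94. No tested gene of the cytokine list (51) or of the interferon-stimulated list (81) belonged to the set. Only 75 of the 14808 genes tested did, so nothing is read from this absence. With LPS+NaBu against LPS, 10 of the cytokines (19.6%, against 40.2% of all genes tested) were called higher and 34 (66.7%, against 37.8%) lower. Of the interferon-stimulated genes limma called 0 higher and 80 (98.8%, against 37.8%) lower, and 0 were higher at an unadjusted p under 0.05 or called higher by edgeR.

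Stress and redox genes included some of the most abundant of the set. Sqstm1, which encodes the autophagy receptor p62, had 223820, 217846 and 197123 normalised counts in LPS+NaBu, against 37652, 41181 and 39711 in LPS and 19929, 18075 and 19444 in Control. Its LPS+NaBu over LPS was 5.39 and its LPS over Control 2.06, close to the limit of 2. Prdx1, a peroxiredoxin that reduces hydrogen peroxide, had 102966, 106615 and 103205 in LPS+NaBu, against 62033, 67351 and 62176 in LPS and 29248, 28797 and 27648 in Control. Sqrdl, a mitochondrial enzyme of sulphide oxidation now named Sqor, had a ratio of 2.48 between LPS+NaBu and LPS. Other genes of the p62 and antioxidant system, looked up after the values were known, did not share 1 direction. Slc7a11 (0.133), Keap1 (0.288), Gsr (0.511), Nfe2l2 (0.716), Gclm (0.717) and Hmox1 (0.861) had LPS+NaBu over LPS under 1, and Txnrd1 (1.26), Gclc (1.31) and Srxn1 (3.40) above 1.

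Enzymes that break down polyamines and arginine also appeared. Sat1, the acetyltransferase that starts polyamine breakdown, had 32478, 32830 and 31741 normalised counts in LPS+NaBu, against 7454, 7542 and 7252 in LPS and 3511, 3681 and 3401 in Control. Smox, spermine oxidase, averaged 9976 ± 857 in LPS+NaBu, 3178 ± 326 in LPS and 1573 ± 45.4 in Control. Arg2, the mitochondrial arginase, averaged 1088 ± 42.7 in LPS+NaBu, 346 ± 31.0 in LPS and 47.5 ± 15.4 in Control. Odc1, the enzyme that starts polyamine synthesis, was looked up after the values were known: it averaged 261294 ± 3170 in LPS+NaBu, 246706 ± 1883 in LPS and 32722 ± 956 in Control, a ratio of 1.06 between LPS+NaBu and LPS. Other polyamine and arginine genes, also looked up then, did not share 1 direction. Nos2 (0.308), Srm (0.363), Sms (0.536), Amd1 (0.983) and Arg1 (0.983) had LPS+NaBu over LPS under 1. Oaz1 (1.30), Azin1 (1.66), Ass1 (2.36), Oaz2 (3.63) and Paox (4.09) had it above 1.

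Genes of the cytoskeleton and of membrane traffic included, with their LPS+NaBu over LPS, Frmd6 (4.58), of the FERM family, Rnd1 (3.04), a small GTPase that loosens actin fibres, and Rab11fip1 (2.71), a partner of the recycling GTPase Rab11.

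Among receptors and channels, Gpr3, a receptor that signals through cyclic AMP without a known protein ligand, had 298, 271 and 280 normalised counts in LPS+NaBu, against 46.1, 71.6 and 33.9 in LPS and 20.7, 16 and 21.1 in Control. Gprc5a, an orphan receptor, had LPS+NaBu over LPS of 4.36 and Trpm4, a calcium-activated cation channel, 1.88. Genes of lipid handling were Fabp4 (2.46), the fatty acid carrier of adipocytes and macrophages, Agpat4 (3.62), an acyltransferase of phospholipid synthesis, and Osbp2 (1.53), an oxysterol-binding protein. Fabp5 (0.475) and Fabp3 (0.498), relatives of Fabp4 looked up after the values were known, had LPS+NaBu over LPS under 1. Eva1b averaged 1437 ± 95.0 in LPS+NaBu, 799 ± 104 in LPS and 38.7 ± 2.12 in Control, and Pdzk1ip1, which encodes a small membrane protein, averaged 724 ± 34.8 in LPS+NaBu, 344 ± 17.4 in LPS and 32.7 ± 9.0 in Control.

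Fndc7 (4.67), Casz1 (3.10), Hrc (3.04), Zfp658 (2.698), Abtb2 (2.64), Inca1 (2.51), Pvrl2 (2.34), Tmcc3 (2.09), Arid3b (2.08), Kctd12 (1.85), Ccdc173 (1.83), Kif17 (1.70), Slc45a3 (1.66) and Ppm1l (1.64) are further annotated protein-coding genes with their LPS+NaBu over LPS. They include the DNA-binding proteins Casz1 and Arid3b, the cell adhesion protein nectin 2 (Pvrl2) and the kinesin motor Kif17. The non-coding 1700006J14Rik (4.34) and Gm26809 (2.31), whose identifier was not matched to the annotation, also met the rule.

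Of the 74 genes with an annotation 70 are protein-coding, and some of the set are uncertain as separate genes. No source used here says whether counting took account of strand, and in 18 genes over 10% of the exonic bases are shared with another annotated gene. Gm22748, a small nucleolar RNA, lies wholly within Odc1 on chromosome 12. It had 146, 203 and 265 normalised counts in LPS+NaBu, against 118, 97.4 and 89.0 in LPS and 3.18, 10 and 18.1 in Control, and its reads cannot be told apart from those of Odc1 here. Gm21399, a processed pseudogene, and H2-K2, a pseudogene of the class I histocompatibility genes, resemble other genes and may share reads with them, as may Oas1h, one of the Oas1 copies. For Arg2, Mfsd9 and Fabp4, 41.8%, 51.8% and 24.0% of the exonic bases lie opposite genes on the other strand.

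Chromosome 4 held the most genes of the set, 11, followed by chromosomes 2 and 7 with 8 each. Besides Ccl5 and Heatr9, neighbours among the 75 were Trpm4 and Hrc, 0.695 kb apart on chromosome 7, Errfi1 and Tnfrsf9, 43.6 kb apart on chromosome 4, and Lsm10 and Eva1b, 46.2 kb apart on the same chromosome. Whether neighbours share a cause was not tested.

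Membership also moved with how libraries were scaled. With equal library totals the median log2 change over all genes shifted by -0.23 for LPS against Control and by 0.28 for LPS+NaBu against LPS, and 69 genes met the rule, of which 49 belonged to the 75. The 26 that dropped out had LPS over Control of at most 2.54. They included Sqstm1, Prdx1, Sat1, Bcl2l11, Hip1r, Enpp5, Gpr3, Mmp12, Smox, Dusp10, Kdm6b and Tyk2. In contrast Akap12, C3, Ccl5, Ccl22, Dusp1, Dusp5, Il4ra and Tnfrsf9 met the rule under each of 3 other scalings (the same total, TMM and quantile normalization), as did 44 of the 75. Tyk2 met it under none of the 3. Every LPS+NaBu library stayed above every LPS library in all 75 genes when scaled to the same total, and in 74 after quantile normalization. The share over all genes under these scalings is not given here and the rule used this contrast, so nothing is read from these counts.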

How the data were processed

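The genes and lists were chosen with earlier results of these data known, and every member was selected on the values described. According to the study's methods, reads of directional libraries passed through Trimmomatic, HISAT2 and featureCounts. In the processing notes of the submitters the tools are STAR 2.7.7a and DESeq2 and the build mm39, so which aligner was used is unknown. The authors' deposited signal, called FPKM, is a gene count divided by 1 size factor per library, with no length term: 100% of values were whole multiples of 1 read, within 0.001. In 3 libraries the step was within 1% of 1, where this says little. Values are called normalised counts.

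Genes with at least 10 normalised counts in at least 3 of 9 libraries (14808) entered limma 3.58.1 (R 4.3.3) on the log2(normalised count + 1) scale, two-sided, with Benjamini-Hochberg adjustment over all of them, and calls are at an adjusted p under 0.05. The scripts were tested on simulated data. On recovered reads edgeR 4.0.16 called 11621 genes for LPS+NaBu against LPS (limma 11558) and 8268 for LPS against Control (8307), and DESeq2 1.42.0 was a further alternative. Per-sample depth is given as recovered reads, and all means are ± SD over 3 libraries.

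Genes named in full were the 12 with the largest LPS+NaBu over LPS, the 10 with the highest LPS+NaBu mean, the 8 with the largest LPS over Control, and members of 8 lists of signalling, cytokine, maturation and lipid mediator genes. Those next to a limit were also named. Some genes that this rule takes are not reported here. Other members were grouped by role after their values were seen. Identifiers were matched to GENCODE M39 for 38984 of 43629 genes.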

Additional observations from a re-analysis of the deposited data

How the results depend on the processing

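The count of 75 genes meeting the rule depended most on its limits: it was 124 with an LPS minimum of 20, 138 with LPS over Control of at least 1.5 and 24 with LPS over Control of at least 4. It lay between 51 and 100 under the other limits, added values, medians and scalings. Leaving out 1 library at a time it was 72 to 77, and 61 of the 75 genes met the rule in every such run. The other 14 were Hip1r, Kdm6b, Osbp2, Enpp5, Slc45a3, Smox, Bcl2l11, 1700006J14Rik, Trpm4, Dusp10, Gpr3, Mmp12, Lsm10 and Inca1. All 75 members were called higher with LPS against Control under every alternative. The count called higher with LPS+NaBu against LPS was 72 to 75 (73 to 75 leaving out 1 library at a time, 75 with edgeR and with DESeq2). With the replicate number as a block (replicate block) it was 75 for both comparisons. The members were selected on both comparisons, so nothing is read from these counts of calls. Same-numbered libraries did not deviate together (correlations of deviations -0.044 to 0.020), 2 of 18 best matches were to the own number, and no label ties them, so the numbers were not used as pairs. For the 31 genes that the naming rule takes, all 558 values under 18 alternative fits kept their direction and their side of the adjusted p of 0.05. This concerns the calls and not membership, since Sqstm1, Prdx1 and Sat1 among them left the set with equal library totals. The rule had fixed the direction of these genes, so nothing is read from the count. The lowest Control means of the set, 2.40 for Heatr9 and 2.53 for Col5a3, rest on a few reads each, which limits the precision of their LPS over Control.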
